A study of Arabidopsis thaliana with 9 samples.

Results

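Cluster 19 of the single-nucleus RNA table of the Arabidopsis thaliana root is described here, together with the columns of the same number in a whole-cell RNA table and in a table of accessible chromatin. The cluster was chosen by its number and by its label as phloem companion-like cells, and it was described across genes. Of the 23241 genes in the nucleus table, 17436 had a value above 0 in cluster 19, and 145 were leading genes of it, chosen by a value of at least 1 per 10000 that was at least 4-fold above every other cluster. All plants were of the Col-0 genotype with no other treatment in the labels. The series held 9 samples: 5 libraries of RNA and 2 of accessible chromatin from flow-sorted nuclei of roots of 7-day-old seedlings, and 2 bulk RNA libraries from 6-day-old seedlings, 1 of root tip protoplasts (cells freed of their walls) and 1 of intact root tips (its title says whole root). Nuclei and bulk samples came from different light and temperature regimes, and the plants behind the whole-cell table are not described in the labels. The deposited tables give 1 average per gene or region for each of 21 nucleus clusters, 20 whole-cell clusters (number 14 is missing) and 21 accessibility clusters, with all libraries pooled. No value therefore has a replicate error, no test was made, and each difference describes these tables only. How many nuclei lie in a cluster, how deeply they were sequenced, how mixed droplets were handled and how cluster numbers were matched between the tables are not given in the sources used here.

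Phloem carries sugars, amino acids, ions and signalling molecules through files of sieve elements. Sieve elements lose their nucleus as they mature and are kept alive by adjoining companion cells, to which they are joined by plasmodesmata. Companion cells keep a nucleus and a dense cytoplasm, and their plasma membrane proton pumps drive the loading and retrieval of solutes by symporters such as SUC2. Mature sieve elements thus cannot contribute nuclei, whereas companion cells can.

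All 3 genes that mark companion cells for this cluster were highest in nucleus cluster 19. Values are average UMIs (unique molecular identifiers, the count of distinct transcript molecules) per 10000. The sucrose and proton symporter gene SUC2 (AT1G22710) was at 8.93 in cluster 19, against 0 to 1.16 in the other 20 clusters with a median of 0.0499. The phloem lectin gene PP2-A1 (AT4G19840) was at 11.4 in cluster 19, against 0 to 0.223 elsewhere with a median of 0.0367. APL (AT1G79430), a MYB transcription factor gene required for phloem identity, was at 7.99 in cluster 19, against 0 to 0.817 elsewhere with a median of 0.0512. The value in cluster 19 lay above the whole range of the other clusters for each of the 3, and in the whole-cell table each was likewise highest in cluster 19: SUC2 was at 8.34 in whole-cell cluster 19 and at most 4.21 in another cluster, PP2-A1 at 2.33 and at most 0.0231, and APL at 6.15 and at most 0.477. These 3 genes go with the label and are no independent support for it. Which genes entered the clustering is not given in the sources used here, and higher values of a cluster's own markers are a description of it.

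The companion cell list held 18 genes, of which 16 were in the table, the 3 markers included. Of the 13 others, 8 were highest in cluster 19, where 6.22% of all 23241 genes in the table were highest, and 11 were above the median of the other clusters, where 42.0% of all genes were above it and 41.5% below. NAKR1 (AT5G02600), which encodes a heavy metal-binding protein needed for sodium and potassium balance in the phloem, was at 19.6 in cluster 19 and at 0.00681 to 0.323 elsewhere. HA3 (AT5G57350), the proton pump gene also called AHA3, was at 10.8 in cluster 19 and at 0 to 0.267 elsewhere. FTIP1 (AT5G06850), whose product moves the flowering signal FT towards sieve elements, was at 4.31 and at most 0.350. All 3 were low in every other cluster, with ratios to the next cluster of 60.7, 40.4 and 12.3. The phloem nitrate transporter gene NRT1.9 (AT1G18880) was less restricted, at 7.89 in cluster 19 and 2.97 in cluster 17, and the metal transporter gene OPT3 (AT4G16370) was at 2.24 in cluster 19 and 0.799 in cluster 11. AT3G12730, for which the gene table used here gives no name, was at 2.17 and at most 0.131. Not every companion cell gene followed: the sulfate transporter gene SULTR2;1 (AT5G10180) was at 0.925 in cluster 19 and 5.87 in cluster 18, BZIP9 at 2.93 and 3.36 in cluster 8, and NRT1.7 was listed at 0 in cluster 19. AT5G53730, also called NHL26, was at 0.0297 in cluster 19 and 0.476 in cluster 21. The potassium channel gene KT2/3, at 0.244, and the sulfate transporter gene SULTR1;3, at 0.228, were below 0.5 in all clusters but highest in cluster 19. PP2-A2, a lectin gene of the PP2-A1 family, was listed at 0 in every nucleus cluster, and in whole cells at 0.0406 in cluster 19 and at 0 in all others. FT and TSF have no row in the table.

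**Figure D1:**
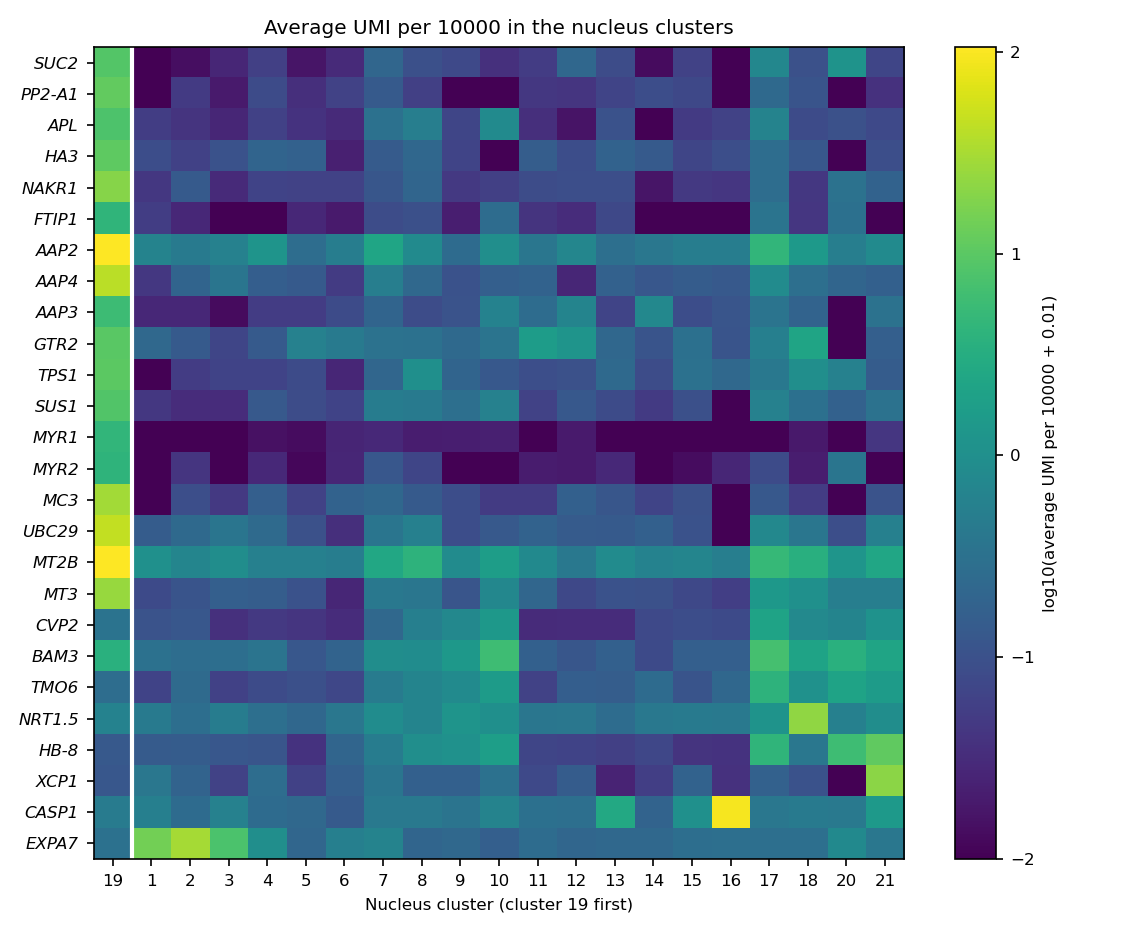
Average UMI per 10000 on a log10 colour scale (0.01 added) for 26 genes (rows) in the 21 nucleus clusters (columns), with cluster 19 at the left of the white line; the lowest 5 rows are markers of pericycle, procambium, xylem, endodermis and root hair. The upper 18 rows are bright in cluster 19, as SUC2 at 8.93 and AAP2 at 104, while genes of other cell types such as XCP1, CASP1 and EXPA7 are bright in other columns.

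The 145 leading genes took up 12.1% of all UMIs in cluster 19, against 0.209% to 0.638% in the other 20 clusters. They were 6.92% of the 2094 genes at 1 per 10000 or more there. The other clusters had between 2 and 186 leading genes by the same rule, with 5 in cluster 17, 50 in cluster 18 and 28 in cluster 20. The ratio of cluster 19 to the next cluster had a median of 12.1 and reached 263, and 80 genes were at least 10-fold above every other cluster. At the edge of the rule, AT5G63700 (4.02-fold) and the small RNA methyltransferase gene HEN1 (4.004-fold) lay just inside, and VOZ1 (3.996-fold) and bZIP44 (3.98-fold) just outside. The next cluster was 17 for 41 of the leading genes, 18 for 17, 20 for 17 and 8 for 13. Of the 145, 144 are protein-coding and 1 is a non-coding RNA, and 67 have a gene symbol in the table used for names. Their median gene length was 1963 bases, against 2645 for the 8230 genes at 1 per 10000 or more in some cluster.

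Among the highest values of the leading genes were those of single genes for metal binding, amino acid transport and protein turnover. The metallothionein gene MT2B (AT5G02380), which encodes a small cysteine-rich metal-binding protein, was at 106 per 10000 in cluster 19, against at most 4.90 elsewhere. A second metallothionein gene, MT3 (AT3G15353), was at 24.9 and at most 1.39. Of 5 metallothionein genes, a family examined after its values were seen, these 2 were highest in cluster 19, beside 6.79% of all 13016 genes at 0.5 or more in some cluster. The family was not uniform: MT1C was at 3.43 in cluster 19 and 41.4 in cluster 4, MT2A at 0.291 and 4.40 in cluster 11, and MT1B at 0.147 and 0.813 in cluster 4. The amino acid permease gene AAP2 (AT5G09220) reached 104, against 0.243 to 4.39 elsewhere. UBC29 (AT2G16740), which encodes a ubiquitin-conjugating enzyme, was at 44.8 and at most 0.735, the thioredoxin gene TRX3 (AT5G42980) at 43.3 and at most 6.25, and UBC9 (AT4G27960) at 37.9 and at most 6.98. These last genes differed in how restricted they were: TRX3 and UBC9 had medians of 3.47 and 3.52 in the other clusters, whereas UBC29 had 0.149. Also among the 25 highest were AAP4, NAKR1, PP2-A1 and HA3, whose values stand beside their groups, MC3 (AT5G64240), a metacaspase gene, at 29.0, the cytochrome P450 gene CYP71A27 at 23.9, the calmodulin gene CAM5 at 20.7, the floral inhibitor gene ATC at 18.2, the amino acid exporter gene UMAMIT27 at 12.3, the stress-related LEA14 at 11.3, the cytokinin exporter gene ABCG14 at 10.9 and the translation factor gene ELF5A-3 at 10.5. Calmodulin genes are near-identical in sequence, so the split of their reads is uncertain. The other 7 have no name: AT4G00670 was at 35.2, AT4G22212 at 24.0, AT5G04080 at 18.1, AT5G54660 at 18.03, AT1G67870 at 16.3, AT5G22090 at 13.4 and AT2G46630 at 10.6. Levels are UMIs from the 3' end, and the order by level sets genes of different length side by side without a correction for length.

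The most restricted genes were mostly not the most abundant: 5 of the 25 genes by ratio were also among the 25 with the highest value. Behind AT1G05813, AT2G26695 and AT2G40390, which led by ratio, came AT2G38920 at 1.11 against at most 0.00797, a 139-fold ratio, and MC3 at 29.0 against at most 0.210, a 138-fold ratio. MYR1 (AT5G18240), a MYB factor gene related to APL, was at 4.50 in cluster 19 and at most 0.0333 elsewhere, or 135-fold. UMAMIT26 (AT1G11460) was at 1.45 and at most 0.0120, and PIN5 (AT5G16530), which encodes an auxin carrier of the endoplasmic reticulum, at 6.44 and at most 0.0588. Ratios of 72.3 for the phospholipase C gene PLC1, 72.1 for HIPP21, 64.4 for the thioredoxin gene TH7, 61.0 for UBC29 and 60.7 for NAKR1 were also among the 25. Next clusters for the most restricted genes were spread over the root, among them 2, 3, 5, 7 and 21, at values near 0. AT2G48090, AT4G01390, AT5G42223, AT4G01380, AT5G42146, AT5G27690, AT1G73630, AT4G00670, AT1G54575, AT1G64370 and AT4G01600 completed the 25, with ratios between 124 and 53.9, and PP2-A1 closed them at 51.1.

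**Figure D2:**
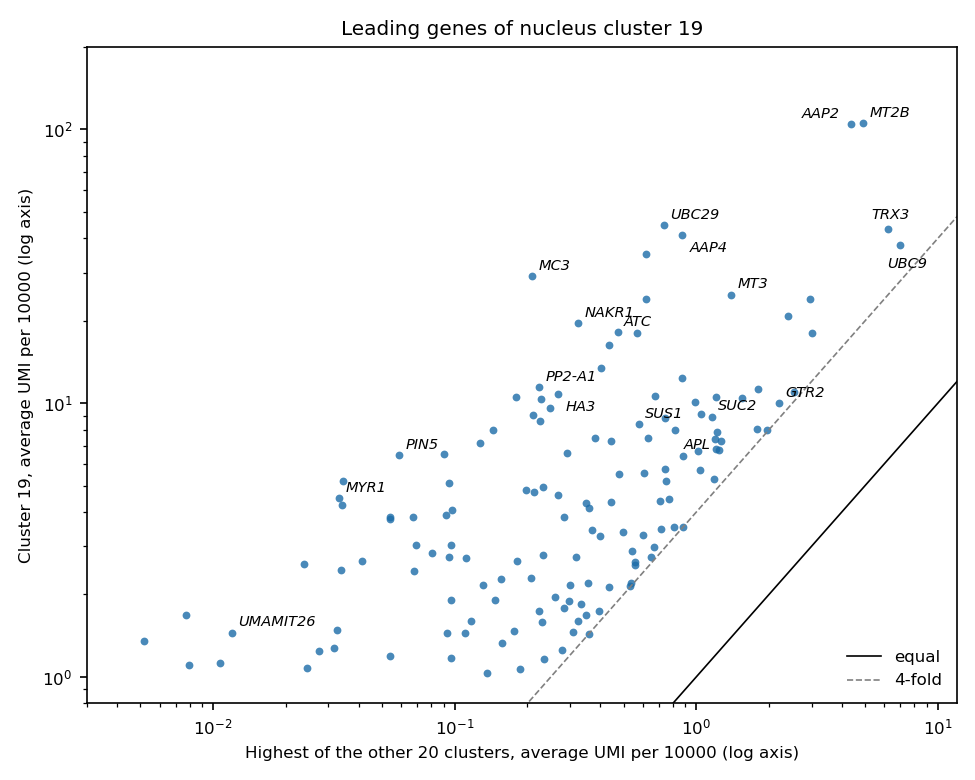
The 145 leading genes, each a point, with the value in nucleus cluster 19 on the vertical axis and the highest value of the other 20 clusters on the horizontal axis (average UMI per 10000, both axes logarithmic); the dashed line marks the 4-fold rule and the solid line equal values. AAP2 and MT2B stand at the top at 104 and 106, and MYR1 and PIN5 far to the left at most 0.0333 and 0.0588 in any other cluster.

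Amino acid permease genes were high in cluster 19. Of 8 in the list, 7 were in the table. All 7 were above the median of the other clusters, where 42.0% of all genes were, and 4 were highest in cluster 19, where 6.22% of all genes were. The summed value of the 7 was 163 in cluster 19 and at most 7.49 in another cluster. Beside AAP2, AAP4 (AT5G63850) was at 41.1 and at most 0.870, AAP3 (AT1G77380) at 5.74 and at most 0.744 and AAP5 (AT1G44100) at 8.19 and at most 2.34. AAP1 was slightly lower in cluster 19, at 3.16, than in cluster 12, at 3.49, and AAP6 was at 0.212 in cluster 19 and 1.07 in cluster 17. The family was thus not uniform. Of the UMAMIT exporter family, examined after its values were seen, 29 of 38 genes reached 0.5 in some cluster, 4 of these were highest in cluster 19, beside 6.79% of all 13016 genes at that level, and 2 were leading genes, UMAMIT26 and its neighbour on the chromosome UMAMIT27. UMAMIT27 was at 12.3 and at most 0.873, whereas UMAMIT26 reached 0.5 only in cluster 19, so its place in this count was fixed.

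Sugar transport and sucrose cleavage genes were in part high there. Of the 12 sucrose transporter and SWEET genes, 6 were above the median of the other clusters and 4 below it, where 42.0% of all genes were above and 41.5% below. Highest in cluster 19 were 3 of the 12, where 6.22% of all genes were highest. SUC2, a marker of the label, was 1 of the 3. The sugar exporter genes SWEET14 (AT4G25010) and SWEET13 (AT5G50800) were the others, at 1.91 and 1.07 in cluster 19 and at most 0.147 and 0.187 elsewhere. SWEET11 and SWEET12, exporters of leaf phloem parenchyma, were listed at 0 in cluster 19 and were highest in cluster 18, at 2.1 and 0.533. Among the 6 sucrose synthase genes, whose enzymes cleave sucrose to feed respiration and callose, 3 were highest in cluster 19, 5 were above the median of the other clusters and 1 was below it. SUS1 (AT5G20830) was at 8.41 and at most 0.580, SUS4 (AT3G43190) at 2.20 and at most 0.535, and SUS5 at 0.738 and at most 0.0355. TPS1 (AT1G78580), which makes the sugar signal trehalose 6-phosphate, was at 10.1 and at most 0.983. The callose synthase gene GSL03 was at 7.98 and at most 1.97.

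Over all genes in the table, 6.22% were highest in cluster 19, 42.0% were above the median of the other clusters and 41.5% below it. Among 10 plasma membrane proton pump genes in the table, 2 were highest in cluster 19, 5 were above the median of the other clusters and 4 below it. HA3 was 1 of the 2 and HA1 (AT2G18960) the other, at 16.2 in cluster 19 and 5.60 in cluster 17. HA2, a main pump gene of the root, was at 3.43 in cluster 19 and 20.6 in cluster 1, and HA7 at 0.240 and 14.4 in cluster 2. GTR2 (AT5G62680), an importer of glucosinolate defence compounds, was at 10.0 and at most 2.20, whereas GTR1 was at 0.358 and 2.08 in cluster 12. Of 8 sulfate transporter genes, 3 were highest in cluster 19 and 7 were above the median of the other clusters: besides SULTR1;3, SULTR3;4 was at 3.15 in cluster 19 and 1.97 in cluster 18, and AST56 at 0.991 and 0.916 in cluster 11. Of the 4 nitrate transporter genes, NRT1.9 was the 1 above the median of the other clusters and 3 were below it, among them AT3G16180 at 0.162 in cluster 19 and 5.80 in cluster 20. The iron and copper list had 9 of 17 genes above the median of the other clusters and 7 below it, and 3 highest in cluster 19: OPT3, and YSL1 and NAS4 at 0.0649 and 0.107. AT1G47395 and AT1G47400, unnamed neighbouring genes, were leading genes at 2.74 and 1.28, against at most 0.0948 and 0.0316.

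Transcription factor genes related to APL were mostly highest in cluster 19. Of the 6 listed MYB-CC genes, the label marker APL included, 5 were highest in cluster 19, where 6.22% of all genes were, and were leading genes. After APL, MYR1 and the unnamed AT3G12730 they were MYR2 (AT3G04030), at 4.15 and at most 0.359, and PHL1 (AT5G29000), at 3.38 and at most 0.497. In whole-cell cluster 19, AT3G12730 was at 1.77 and at most 0.0286 elsewhere. The others after APL were low there: MYR1 was at 0.0228, MYR2 was listed at 0, and PHL1 was at 0.235, below 0.397 in cluster 2. PHR1, the phosphate starvation regulator of the same family, was at 0.630 in cluster 19 against 0.638 in the median other cluster, and was highest in cluster 12 at 1.12. DOF factor genes went more than 1 way. The 5 PEAR-type DOF genes were all below their value in cluster 17, as with TMO6 at 0.269 in cluster 19 and 3.95 in cluster 17. All 5 were still above the median of the other clusters, where 42.0% of all genes were. In whole cells 1 of the 5, DOF6, was highest in cluster 19, at 1.16 against 0.437 in cluster 17. OBP2 (AT1G07640) was a leading gene of nucleus cluster 19, at 5.57 and at most 0.605. Of the CYCLING DOF FACTOR genes, all 4 were above the median of the other clusters and 1 was highest in cluster 19. CDF3 was at 1.37 in cluster 19 (2.15 in cluster 18) and AT1G69570 at 0.797 and at most 0.366. The homeobox gene KNAT6 was at 7.29 and at most 1.27, WRKY20 at 8.84 and at most 0.740, and AT2G03500, an MYB repressor gene of flowering also called EFM, at 9.09 and at most 1.04. VOZ1 (AT1G28520), a vascular zinc finger factor gene, was at 3.64 and at most 0.912.

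Genes of mobile signals and hormones were also among those highest in cluster 19. ATC (AT2G27550) and TFL1 (AT5G03840), which encode floral inhibitors related to FT, were at 18.2 and 1.45 and at most 0.474 and 0.110 elsewhere. Of 8 cytokinin and abscisic acid synthesis genes, 5 were highest in cluster 19, where 6.22% of all genes were. Above the median of the other clusters were 7, with none below it, beside 42.0% and 41.5% of all genes. The cytokinin synthesis genes IPT5 (AT5G19040), IPT3 and IPT7 were at 5.29, 0.828 and 0.546 in cluster 19, against at most 1.18, 0.148 and 0.0172. IPT1 was listed at 0 in all nucleus clusters. ABCG14 (AT1G31770), which exports cytokinin for transport to the shoot, was at 10.9 and at most 2.54. The abscisic aldehyde oxidase gene AAO3 was at 0.690 and at most 0.393, and ABA2 at 0.360 and at most 0.295. The auxin synthesis genes YUC9 and YUC5 were at 2.89 and 1.73 and at most 0.542 and 0.394. This family was examined after its values were seen, and 5 of its 8 genes reached 0.5 in some cluster, YUC5 only in cluster 19. The other 3 of the 5 were highest elsewhere: YUC3 was listed at 0 in cluster 19 and was at 7.74 in cluster 6, YUC8 was at 0.0170 and 1.99 in cluster 20, and YUC6 at 0.699 and 2.64 in cluster 18. In whole cells ATC, ABCG14 and YUC9 were also highest in cluster 19. IPT5 was not, at 0.0225 there and 0.103 in cluster 2, nor was TFL1, at 0.00941 and 0.0206 in cluster 17. YUC5 was at 0.779 there and 0.874 in cluster 4. Among receptor kinase genes, CLV1 (AT1G75820) was at 10.4 and at most 0.227, and XIP1 (AT5G49660), the CEPR1 receptor of root-borne CEP peptides, at 7.46 and at most 0.632. CLE41, which encodes a phloem-made peptide that maintains the cambium, was at 1.30 in cluster 19 and 0.402 in cluster 17. CLE42 was listed at 0 in cluster 19, and CLE44 was lower there than in cluster 17.

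Sieve element and protophloem genes were mostly higher in cluster 17 than in cluster 19. Of the 25 listed, 17 were lower in cluster 19 than in cluster 17 and 6 were higher. Of the 16 companion cell genes, the 3 markers of the label included, 13 were higher in cluster 19 and 2 lower. How all genes split between clusters 19 and 17 was not counted. The summed value of the companion list was 79.7 in cluster 19 and 11.99 in cluster 18, the highest of the others. Without the 3 markers these sums were 51.4 and 11.7. The summed value of the sieve list was 10.9 in cluster 19 and 21.3 in cluster 17. The protophloem receptor gene BAM3 was at 3.61 in cluster 19 and 6.97 in cluster 17. CVP2, an early phloem phosphatase gene, was at 0.334 and 2.14, and OPS at 0.0763 and 0.929. CalS7, the callose synthase gene of sieve plates, was closer, at 0.508 in cluster 19 and 0.655 in cluster 17. Of the 16 listed genes at 0.5 in some cluster, 7 were highest in cluster 17 and 3 in cluster 19: SUS5, the filament protein gene SEOa at 0.954 against at most 0.379, and ENODL9 at 1.24 against 1.15 in cluster 17. SUS5 and SEOa reached 0.5 only in cluster 19, so this floor fixed where they were highest. Over all 25, with no floor, 5 were highest in cluster 19, where 6.22% of all genes were. In cluster 19, 20 of the 25 were above the median of the other clusters and 3 below it, beside 42.0% and 41.5% of all genes. NAC045 was listed at 0 in every nucleus cluster, and NAC086, also needed for sieve element enucleation, was at 0.120 and at most 0.0222.

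**Figure D3:**
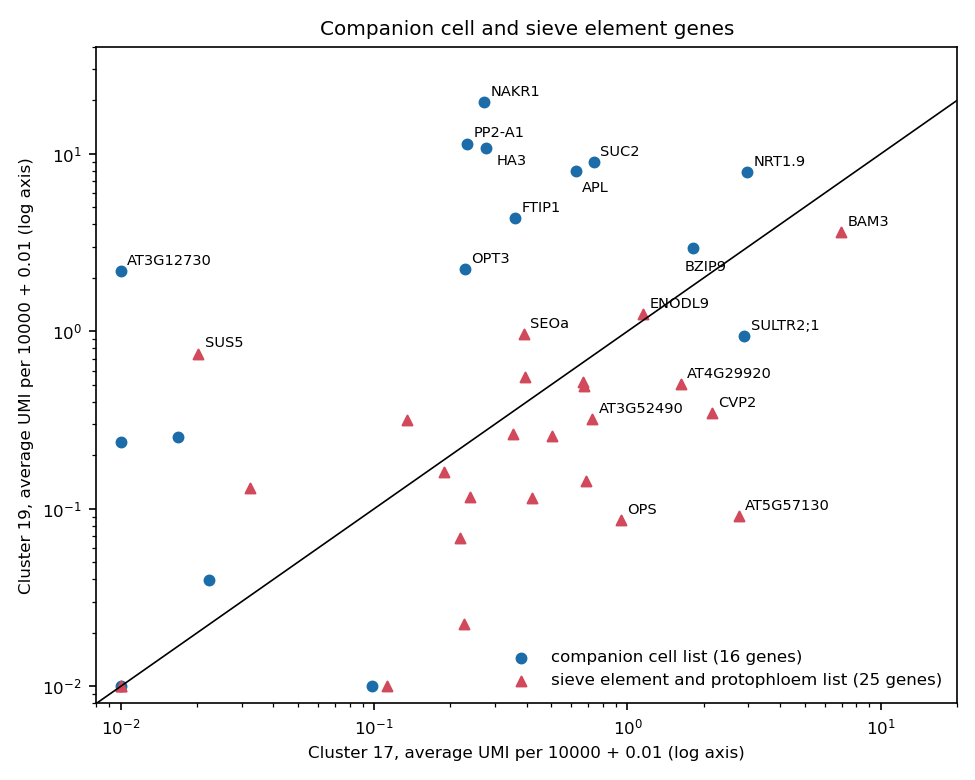
Genes of the companion cell list (circles) and of the sieve element and protophloem list (triangles) by their average UMI per 10000 in cluster 19 (vertical) and cluster 17 (horizontal), with 0.01 added and both axes logarithmic; the line marks equal values. Of the companion genes, the 3 markers of the label included, 13 of 16 lie above the line, and of the sieve genes 6 of 25.

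Within the PP2-A phloem lectin family the pattern of PP2-A1 was not general. Of the 13 members in the table, 2 were highest in cluster 19, PP2-A1 among them, where 6.22% of all genes were highest. PP2-A1 was the 1 highest there of the 7 that reached 0.5 in some cluster, a floor it passed only in cluster 19. Over all 13, 5 were above the median of the other clusters and 4 below it, beside 42.0% and 41.5% of all genes. PP2-A14 was at 2.40 in cluster 19 and 6.07 in cluster 5, PP2-A13 at 0.406 and 2.74 in cluster 11, and PP2-A8 was listed at 0 in cluster 19 and was at 1.06 in cluster 5. Plasmodesmal protein genes were spread as well. Of 12 in the table, 6 were above the median of the other clusters and 5 below it, and 1 was highest in cluster 19. PDLP6 was at 1.29 in cluster 19 and 1.25 in cluster 17, and PDLP8 at 0.273 and at most 0.403, while PDLP4 was listed at 0 in cluster 19 and was at 8.67 in cluster 14. HWI1, which encodes a plasmodesmal protein also called PDLP5, was at 0.184 and at most 3.24.

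No marker of another root cell type was highest in cluster 19. This holds for the 45 genes in the lists for xylem, procambium and stele, pericycle, endodermis, root hair, non-hair epidermis and root cap, cortex, and cell division, of which 20 were above the median of the other clusters and 20 below it. They were thus at the level of a typical other cluster, and 42.0% of all genes were above that median and 41.5% below. Over all genes, 6.22% were highest in cluster 19. The lists were chosen as markers of other cell types, so their count of 0 is a description and no test. The xylem protease gene XCP1 was at 0.113 in cluster 19 and 21.2 in cluster 21, and VND7, MYB46 and LAC11 were listed at 0 in cluster 19. The Casparian strip gene CASP1 was at 0.470 in cluster 19 and 93.3 in cluster 16. The root hair expansin gene EXPA7 was at 0.312 in cluster 19 and 30.7 in cluster 2. These lists summed to 0.386, 1.92 and 4.09 in cluster 19, near the median of the other clusters at 0.599, 1.81 and 3.50. Pericycle genes summed to 1.54 in cluster 19, against 36.8 in cluster 18, with SKOR listed at 0, and procambium and stele genes to 2.78, against 19.1 in cluster 21. Root cap and non-hair genes summed to 0.194 and at most 5.03 elsewhere, with SMB, NAC015 and NAC070 listed at 0. Of the cell division genes, CDC20.1 was at 0.619 in cluster 19 and 24.7 in cluster 10 and HIS4 at 0.436 and 3.42 in cluster 9.

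Of 6861 genes at 0.5 per 10000 or more in cluster 19 or in the mean of the other 20 clusters, 968 (14.1%) were at least 2-fold above that mean in cluster 19 and 1517 (22.1%) at least 2-fold below it, with 0.1 added to both values. Centred on the median gene, which lay at -0.15, the counts were 1166 and 1302. The genes furthest below the mean of the others were highest in clusters 16, 1 or 2. Highest in cluster 16 were AT1G43020, listed at 0 in cluster 19, AT5G10278, AUR2, the peroxidase gene PER64 and UCC1. MOP10, PERK13, which encodes a receptor-like kinase, and AT4G08400 were at 0.120, 0 and 0.147 in cluster 19, against 49.8, 9.64 and 41.5 in cluster 1, where they were highest. AT1G78260 was at 0.0396 in cluster 19 and 9.01 in cluster 2. The median of the other clusters was at most 0.583 for each of these genes, far below their highest value.

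In rank correlation across 13016 genes, with each gene centred on its mean over clusters, cluster 19 was most like cluster 18 (0.406), cluster 17 (0.406), cluster 20 (0.213) and cluster 8 (0.196). In accessibility across 20803 regions the same clusters came first in another order, at 0.254 for cluster 17, 0.218 for 18, 0.210 for 8 and 0.156 for 20. Whole-cell cluster 19 was closest to whole-cell cluster 8 (0.598), then to 20 (0.495) and 18 (0.426), across 7302 genes. Between the tables, over 6416 genes at 0.5 or more in both, nucleus cluster 19 was most like whole-cell cluster 19 (0.498, with 0.282 for cluster 17 next). In the other direction, whole-cell cluster 19 was more like nucleus cluster 8 (0.548) than nucleus cluster 19 (0.498). These are descriptions across genes or regions that share libraries and depth, and genes are not independent.

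Most leading genes were also highest in whole-cell cluster 19. Of the 145, 99 (68.3%) were highest there, as were 5.53% of all 23241 genes. At least 2-fold above the mean of the other whole-cell clusters were 93 of the 145 and none was at least 2-fold below, against 3.52% and 6.89% of all genes, or 13.3% and 19.7% of the 4097 genes at 0.5 or more in whole-cell cluster 19 or in the mean of the others. Among the 100 that reached 0.1 per 10000 in some whole-cell cluster, 84 were highest in cluster 19, beside 5.52% of all 14372 genes at that level, and no other cluster was highest for more than 4, a count to which genes that reached 0.1 only in cluster 19 had to add. The leading genes made up 5.08% of whole-cell cluster 19, against 0.467% to 1.66% of the other 19 clusters. The gap to the next cluster was narrower than in nuclei for some: AAP2 was at 0.676 in whole-cell cluster 19 and 0.242 in cluster 17, and MC3 at 2.76 and 0.434 in cluster 5. MT2B, with the highest nucleus value, was at 15.1 in whole-cell cluster 19 and 15.2 in cluster 7. TRX3 reached 109 in whole-cell cluster 19, beside 91.9 in cluster 5. CAM5, at 7.98, was below its 10.9 in cluster 1. The restriction of MT2B, TRX3 and CAM5 to cluster 19 seen in nuclei was thus absent or weak in the whole-cell table, which was scaled separately, whereas AAP4 (2.94 against 0.0240), MT3 (3.41 against 0.0477) and NAKR1 (6.86 against 0.139) were restricted in both.

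Another 13 leading genes, 8.97%, were listed at 0 in every whole-cell cluster, compared with 1.28% of the 8230 genes at 1 per 10000 or more in some nucleus cluster. PIN5, at 6.44 in nuclei, the carboxypeptidase-like gene scpl31 at 7.24, CYP78A8 at 4.07, AT2G40390 at 5.2 and AT1G64370 at 7.98 were among them, as were UMAMIT26 and PLC1. UMAMIT27, at 12.3 in nuclei, was listed at 0 in whole-cell cluster 19 and at most 0.0237 elsewhere, and AT1G67870, at 16.3 in nuclei, at 0 and at most 0.00161. An exact 0 in a table of averages can also be a gene that the counting did not cover, and whether that held here was not tested.

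Whole-cell cluster 19 had 50 leading genes of its own, which were 2.80% of the 1784 genes at 1 per 10000 or more in it. Of these, 33 were also leading genes of the nucleus cluster, 66.0% of the whole-cell list and 22.8% of the nucleus list. Highest in nucleus cluster 19 as well were 46 of the 50, where 6.22% of all genes were highest. The 10 with the largest ratios that were no nucleus leading genes began with ARFB1A, a small GTPase gene, at 3.36 in whole-cell cluster 19 and at most 0.0638 elsewhere, a 52.7-fold ratio. In nuclei it was at 1.58 in cluster 19 and 0.645 in cluster 20. AT4G15680 was at 1.14 in whole cells, 44.5-fold above the next cluster, and listed at 0 in every nucleus cluster, the reverse of PIN5. AT3G04300 (39.8-fold), PLC5 (11.1-fold), AT3G03505 (11.1-fold), AT4G21310 (10.3-fold), AT4G33660 (9.44-fold), GH9B8 (7.81-fold), AT1G10380 (6.16-fold) and AT5G49320 (6.03-fold) followed, and each of these 8 was highest in cluster 19 in nuclei too.

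**Figure D4:**
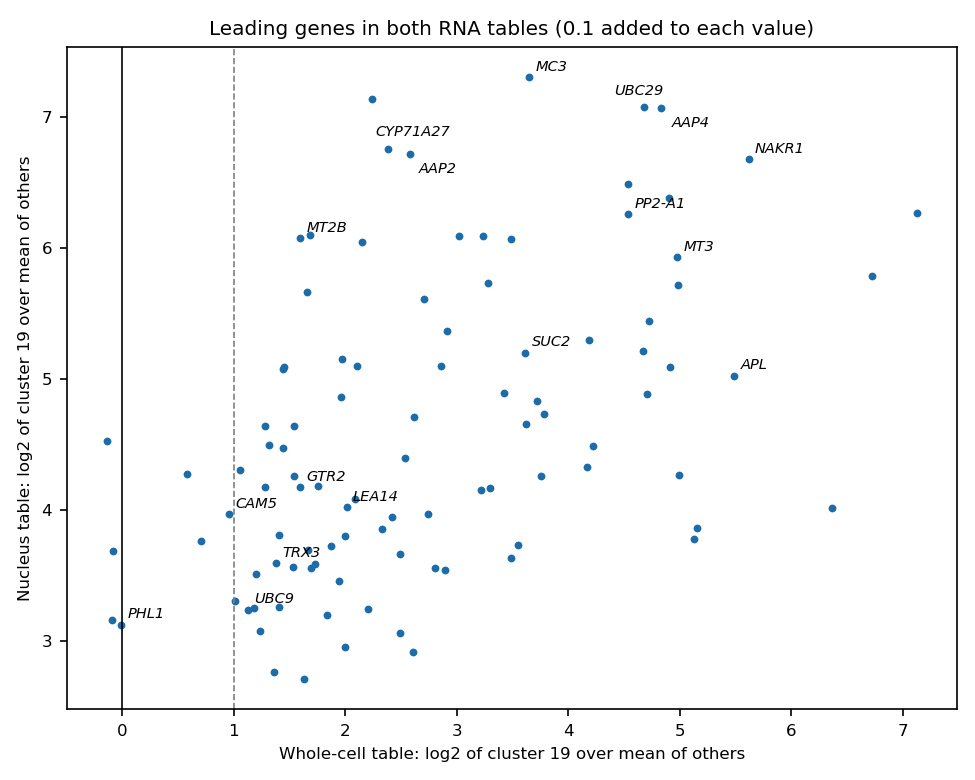
Log2 ratio of cluster 19 to the mean of the other clusters in the nucleus table (vertical) and in the whole-cell table (horizontal), with 0.1 added to each value, for the 100 leading genes at 0.1 per 10000 or more in some whole-cell cluster; the solid line marks no difference in whole cells and the dashed line 2-fold. Of the 100, 93 lie to the right of the dashed line.

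Accessible chromatin near the leading genes was most open in cluster 19 for 84 of the 144 that had a region. Accessibility is the average fragment signal per region, with each column scaled to 10000. A region was assigned to a gene when it lay within 1000 bases of it on either side. Of the 144 leading genes with such a region, 84, or 58.3%, had a region that was highest in cluster 19, where 9.69% of all 22988 genes with a region had one. In the other columns this share of the leading genes was 0% to 16.7%, the last in cluster 4, in which 31.1% of all genes had a region highest. Averaged over the regions of a gene, 82 leading genes were highest in cluster 19 (56.9%, against 6.27% of all genes). On the same average, 50 (34.7%, against 1.54% of all genes) were at least 2-fold above the mean of the other columns, while none was at least 2-fold below. The median log2 ratio was 0.71 for the leading genes and -0.08 for all genes. Over the 20803 regions, 4.57% were at least 2-fold more open in cluster 19 and 7.34% were highest there. Accessibility played no part in the choice of leading genes, but whether cluster numbers were matched through expression is not given.

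**Figure D5:**
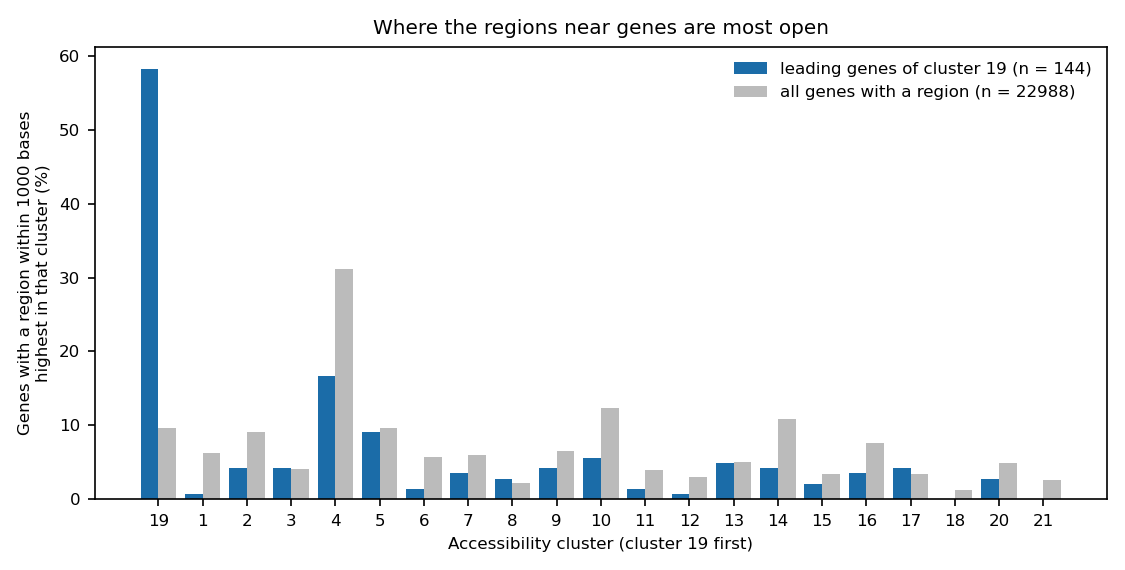
Share of genes with a region within 1000 bases that is highest in each accessibility cluster, for the 144 leading genes of nucleus cluster 19 (blue) and for all 22988 genes with a region (grey), with cluster 19 first. The leading genes reach 58.3% in cluster 19 and at most 16.7% in another column.

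The 10 regions with the largest ratio of cluster 19 to the next column, among regions whose mean over all columns was at or above the median region, lay mostly beside leading genes. Coordinates are those of the deposited table, on TAIR10. The first, chr1:11985677-11986072 within 1000 bases of AT1G33080, was at 6.31 in cluster 19, against a median of 0.338 and at most 0.924 in the other columns. The second, chr5:1103926-1106436 beside AT5G04080, was at 3.28 and at most 0.684, a 4.79-fold ratio. A region beside SUS4, chr3:15179707-15179900, was at 5.15 and at most 1.16, and a region beside NAKR1, chr5:584125-584663, at 3.29 and at most 0.794. Beside AT1G67870 chr1:25448350-25448992 was at 3.18 and at most 0.819, and beside AT3G15650 chr3:5307631-5308462 was at 2.31 and at most 0.667. VOZ1, just outside the rule for leading genes, had the third region, chr1:10027612-10028483, at 4.47 and at most 0.943. The other 3 had no leading gene within 1000 bases: chr5:25857769-25858638 near AT5G09215 and AT5G64687, chr4:1251726-1252638 near AT4G02800, and chr1:7237078-7237519, which had no gene of the nucleus table within 1000 bases. Of the 75 regions at least 2-fold above every other column, 19 (25.3%) lay within 1000 bases of a leading gene, as did 1.06% of all regions.

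Transport and MYB genes gave further cases. AAP2 had a region at chr5:2865305-2865469 at 3.98 in cluster 19 and 2.39 in cluster 20, and AAP4 at chr5:25550849-25551317 at 3.90 and 1.61. SWEET14 had chr4:12856411-12858142 at 2.40 and at most 1.098, SWEET13 chr5:20668042-20668289 at 3.09 and at most 0.970, MYR2 chr3:1045239-1045728 at 3.90 and 1.98 in cluster 17, and PHL1 chr5:11022042-11022593 at 1.83 and at most 0.846. UBC29 had chr2:7266883-7267995 at 2.34 and at most 0.880, and ATC chr2:11771085-11772633 at 1.91 and at most 0.857. Expression and openness did not always go together. Both regions of SUC2 were unremarkable, chr1:8030825-8034278 at 0.690 in cluster 19 and 0.749 in cluster 7, and chr1:8029737-8030263 at 0.350 and at most 0.937. MC3, with its 138-fold RNA ratio, had regions that ranked 7 and 4 among the 21 columns, FTIP1 ranked 6 and MT2B 2 on the mean of their regions, and AT2G40390 ranked 14. PP2-A1 had chr4:10771818-10774397 at 1.04 and at most 0.640. APL had no region within 1000 bases. Values of narrow regions vary more between columns: 17.5% of regions of up to 690 bases were listed at 0 in cluster 19, and 0% of those over 4277 bases.

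In the bulk libraries the leading genes did not move in a single direction. FPKM (fragments per kilobase of transcript, scaled to the mapped fragments of the library) were compared as log2(FPKM + 1), for genes of the nuclear genome that reached 5 FPKM in protoplasts or in intact tips. Of 77 leading genes past that floor, 19 (24.7%) were at least 2-fold higher in protoplasts than in intact root tips and 22 (28.6%) at least 2-fold lower, where 11.4% of all 15110 genes were higher and 30.3% lower. Their median log2 ratio was -0.19, against -0.46 for all genes, and 22 were higher and 16 lower after centring on the median of all genes, where 17.4% of all genes were higher and 18.8% lower. SUC2 was at 47.7 FPKM in protoplasts and 6.03 in intact tips, MC3 at 41.1 and 7.65, and YUC9 at 96.4 and 4.97. In the other direction, AAP2 was at 1.68 FPKM in protoplasts and 44.0 in intact tips, GTR2 at 8.72 and 80.7, MIPS3, an inositol phosphate synthase gene, at 0.392 and 18.9, UMAMIT27 at 0.0536 and 5.75, and MT3 at 5.88 and 44.2. In bulk RNA, fewer companion cells and less RNA per companion cell cannot be told apart, and each bulk group is 1 library.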

How the data were processed

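The nucleus and whole-cell tables hold, as deposited, an average UMI signal per gene and cluster; each column sums to 10000. The accessibility table holds, as deposited, an average fragment signal per region and cluster, here scaled to 10000 per column (totals 10532 to 14125 before). The bulk table holds FPKM values deposited by the authors. Tools named in the submitters' processing notes are Seurat 3.1.5, Signac 0.2.5, Cell Ranger ATAC 1.2, Cell Ranger 3.1.0, SAMtools 0.1.19, Bowtie2 2.1.0, TopHat2 2.0.11 and FastQC, with the build TAIR10. Depth is unknown, so values near 0 have unknown precision.

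Log2 ratios are of cluster 19 over the mean of the other clusters with 0.1 added; they understate the change of low genes, as does adding 1 to FPKM. Ratios to the next cluster are plain. Lists are counted over all their genes in the table, against the median of the other clusters and with no floor, a choice made after the values were seen, since a floor that a gene passes only in cluster 19 fixes its direction. The shares of all 23241 genes for such counts are 6.22% highest in cluster 19, 42.0% above that median and 41.5% below it. Named were the 25 leading genes by ratio and 25 by level, the 10 lowest genes (1 is not reported here), 10 regions, 10 whole-cell genes and members of 26 lists (197 genes, 190 in the table); other families, KNAT6, WRKY20, CLV1, XIP1, TPS1, OBP2, GSL03, EFM, VOZ1, scpl31, CYP78A8 and MIPS3 were named after their values were seen. The cluster, lists and rules were chosen with earlier results of these data known. Gene names and positions for the joins came from a RefSeq table of TAIR10.1, which matched all 23241 genes. It gives no strand, so a planned upstream window became 1000 bases on either side, and promoter motifs were not searched. Calculations used Python 3.11.15, pandas 2.3.3 and NumPy 2.4.6, figures Matplotlib 3.10.9, and were tested on simulated data.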

Additional observations from a re-analysis of the deposited data

How the results depend on the processing

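Of 48 alternative settings, 33 left the count they bear on within 1.5 times its reported value, among them every setting tried for the leading genes highest in whole-cell cluster 19 (84 of those at 0.1 or more in some cluster, 99 of all) and for those with a region most open in cluster 19 (84 reported, 70 to 88). The counts of genes 2-fold higher or lower depended most on settings for low values. Higher genes in nuclei, 968 as reported, numbered 367 with a pseudocount of 1 and 644 with a floor of 1. Lower genes, 1517 as reported, numbered 305 with a pseudocount of 1, 2682 with a floor of 0.2, 745 with a floor of 1, 3267 with no floor and 408 against the median of the other clusters. Whole-cell higher genes, 544 as reported, numbered 192 with a pseudocount of 1, 358 with a floor of 1, 818 with no floor and 868 against the median. More open regions, 951 as reported, numbered 152 with a pseudocount of 1 and 603 among regions of 500 bases or more. Leading genes, 145 as reported, numbered 262 at 2-fold and 92 at 8-fold. A higher floor or pseudocount leaves fewer low genes to count; other causes were not tested. Of the 3 nucleus clusters most like cluster 19, 2 were shared under Pearson correlation of log2 values. Centring on the median gene and the minimum region width were chosen after seeing the data.

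No paired analysis was possible because the deposited tables pool the replicates of each kind of library, and for the same reason no analysis leaving out a replicate was run. Depth limits all values near 0 to an unknown degree, and 1 library per bulk group leaves no spread.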
